A study of Homo sapiens with 6 samples.

Results

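The BCL2 family genes described here are 10 genes of the intrinsic, or mitochondrial, pathway of apoptosis. They were chosen by gene symbol, and all 10 were found among the 18625 genes of the NB4 expression table. The 4 survival members were BCL2, BCL2L1, MCL1 and BCL2A1. The 6 killer members were the pore formers BAX and BAK1 and the BH3-only genes BID, BBC3, PMAIP1 and BCL2L11. The RNA-seq libraries came from NB4, a line of acute promyelocytic leukemia that carries the PML-RARA fusion. The 2 groups were cells kept for 3 days with DMSO, the solvent, and cells kept for 3 days with 10 μM Tan I (Tanshinone I, a lipid-soluble compound of Salvia miltiorrhiza) in DMSO. Each group had 3 libraries, and nothing in the labels says that they came from separate cultures, so p-values measure only the spread between these libraries.

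In this pathway the survival proteins hold back the pore formers at the outer mitochondrial membrane. BH3-only proteins sense stress and either occupy the survival proteins or act on the pore formers directly, and once pores open, cytochrome c is released and caspases are switched on. Leukemia cells of the myeloid lineage often depend on BCL2 or MCL1, and Annexin V staining was used in the study to follow apoptosis under Tan I, so the comparison asks whether the transcripts of these genes differed with it. Much of the control of these proteins lies in turnover, cleavage and binding, which read counts do not measure. Gene-level counts also do not separate the splice forms of BCL2L1, MCL1 or BCL2L11.

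All 10 genes were expressed well enough to be tested, with the lowest mean over the 6 libraries at 112 normalized counts, for BCL2A1. Normalized counts are read counts divided by 1 size factor per library. The reads on listed genes ranged from 25356503 to 31679138 in DMSO and from 21502760 to 24298627 in Tan I. No library was a copy of another, and even the nearest libraries, both numbered 1, differed by a chi-square of 5.95 per gene. The first principal component (PC1) of all genes tested held 70.8% of the variance between libraries and did not separate the groups. In DMSO the replicates scored -48.0, 41.1 and -26.7 in order of number, and in Tan I -46.8, 8.65 and 71.6. Mitochondrially encoded mRNAs took 2.55% to 4.01% of the reads in DMSO and 2.84% to 3.29% in Tan I. Of the 6 promyelocyte markers, 5 were listed, and their summed level was 70959 to 76923 normalized counts in DMSO and 41825 to 50123 in Tan I. Most of that sum was MPO, at 60389 to 64107 in DMSO and 33279 to 39449.8 in Tan I. MPO (log2 fold change -0.78) and CTSG (-0.69) passed the limma test without adjustment, while PRTN3 (-0.32), AZU1 (-0.25) and CD33 (0.07) had overlapping groups and did not. Of the 8 markers of T, B, erythroid and monocytic cells, 5 were listed, with a summed level of 406 to 513 in DMSO and 442 to 632 in Tan I, most of it from CD3D, and none passed the test. The part of these shifts in the results below was not tested, and in bulk RNA fewer cells of a kind and less RNA per cell cannot be told apart.

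No member passed the test between Tan I and DMSO. BCL2 was the only member whose Tan I libraries all lay apart from the DMSO libraries, as for 7.89% of all genes tested. BCL2 was 18.5% lower in Tan I on average. Of the 6 killer members, 5 had a higher mean in Tan I, by 12.4% for BID up to 19.6% for BBC3, while BCL2L11 was 17.2% lower. In these 5 genes the Tan I libraries were widely spread, with replicate 1 at the DMSO level and replicates 2 and 3 mostly above it. The test was limma on log2(normalized count + 1) for 16887 genes, and a call needed an unadjusted p of 0.05 or less together with a log2 fold change of 0.25 or more in size, the fold threshold of the study. It called 0 of the 10 members, where 2.42% of all genes tested were called (1.32% higher and 1.1% lower in Tan I). Adjusted by Benjamini-Hochberg over all genes tested, 0% of genes were called, with 408 genes called before adjustment, and every member had an adjusted p of 0.999. On the reads recovered from the table, edgeR's quasi-likelihood test called 409 genes unadjusted and 0 adjusted, and DESeq2 called 420 and 16, with 0 members in each.

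The promoters below are those of BCL2, the member whose groups lay apart, of BAX, which is set against BCL2 in a ratio further on, and of BBC3, which had the largest percent difference among killer members. Each is the 250 bases before the RefSeq start on GRCh38.p14, given 5′ to 3′ on the strand of the gene. By the GENCODE spans given below, the BCL2 window lies wholly within the gene. The BAX and BBC3 windows run partly into theirs, and some CACGTG positions of BAX fall in that part. The windows are therefore not only sequence upstream of the annotated genes. BCL2 is at chr18:63319770-63320019 on the - strand, BAX at chr19:48954625-48954874 on the + strand and BBC3 at chr19:47232668-47232917 on the - strand. Capitals mark CACGTG, the E-box bound by MYC with MAX and by other bHLH factors, which reads the same on both strands.
BCL2: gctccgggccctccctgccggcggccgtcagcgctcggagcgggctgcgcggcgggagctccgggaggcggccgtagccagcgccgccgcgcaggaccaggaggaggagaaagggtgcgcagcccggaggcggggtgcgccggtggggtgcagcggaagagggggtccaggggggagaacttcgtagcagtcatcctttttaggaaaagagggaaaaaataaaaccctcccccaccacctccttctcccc
BAX: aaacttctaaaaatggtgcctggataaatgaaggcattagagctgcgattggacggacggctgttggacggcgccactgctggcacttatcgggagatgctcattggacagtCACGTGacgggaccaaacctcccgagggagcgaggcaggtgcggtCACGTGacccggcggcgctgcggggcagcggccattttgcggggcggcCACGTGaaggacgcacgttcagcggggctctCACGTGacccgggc
BBC3: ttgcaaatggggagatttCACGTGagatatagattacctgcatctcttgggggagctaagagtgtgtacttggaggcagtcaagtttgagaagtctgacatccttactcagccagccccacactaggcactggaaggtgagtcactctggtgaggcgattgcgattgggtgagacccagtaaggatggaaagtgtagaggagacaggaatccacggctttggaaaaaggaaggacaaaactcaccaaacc
The letters CACGTG stood at 4 positions in the BAX window, at 1 in that of BBC3 and at none in that of BCL2. Of all 35116 promoter windows of this length, 6.34% held the motif and 0.0142% held it at 4 or more positions. The GC content was 70.0% for BCL2, 62.8% for BAX and 49.2% for BBC3, with a median of 58.0% over all windows. Among the windows of the other members, only BID held it, at 1 position in 2 of its 5 windows. GGGCGG, the GC box bound by SP1, was also searched on both strands and stood in at least 1 window of BAX, BAK1, BID, PMAIP1 and BCL2L11, and in 42.6% of all windows. A RefSeq promoter was found for 9 of the 10 members, all but MCL1.

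Among the survival members, BCL2 (ENSG00000171791) gave the clearest difference. BCL2, the founding member that sequesters BH3-only proteins and pore formers, occupies positions 63123346 to 63320128 of chromosome 18 (GRCh38, - strand), and its canonical GENCODE transcript has 3 exons. It had 598, 693 and 522 normalized counts in DMSO replicates 1, 2 and 3, and 513, 519 and 445 in Tan I. The groups did not overlap, although Tan I replicate 2 and DMSO replicate 3 were within a few counts of each other, and Tan I replicate 3 was the lowest of all. The means were 604 ± 85.5 and 492 ± 40.7 (SD, n = 3 each). The log2 fold change was -0.29 ± 0.15 (standard error) with a 95% interval from -0.63 to 0.06 (limma, unadjusted p = 0.0903). The exact two-sided permutation p was 0.1, the smallest that 3 libraries against 3 allow. Of all genes tested, 7.89% had groups that did not overlap, 3.97% with Tan I below DMSO, so 1 of 10 members is close to that background.

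MCL1 (ENSG00000143384, chromosome 1 from 150560895 to 150579738, - strand), a short-lived protein that myeloid cells need to survive, had the highest count of the family. It had 3319.5, 2777 and 3608 normalized counts in DMSO and 3474, 3580.1 and 3411 in Tan I. The Tan I libraries fell inside the DMSO range and were close together, and DMSO replicate 2 alone was low. The means were 3235 ± 422 and 3488 ± 85.4 (SD, n = 3 each). The log2 fold change was 0.12 with an interval from -0.18 to 0.41, the narrowest of the 10 members, and it was 0.01 without DMSO replicate 2. The protein-coding gene ADAMTSL4 overlaps MCL1 on the opposite strand and no strand setting is given for the counting, so reads of the overlap cannot be assigned with certainty.

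BCL2L1 (ENSG00000171552, chromosome 20 from 31664452 to 31723989, - strand) encodes BCL-XL, a survival protein of many tissues. It had 266, 374 and 277 normalized counts in DMSO and 241, 300.4 and 339 in Tan I, with DMSO replicate 2 the highest and Tan I replicate 1 the lowest. The log2 fold change of -0.05 (95% interval -0.52 to 0.41) changed sign when DMSO replicate 2 or Tan I replicate 1 was left out, at 0.10 and 0.08. BCL2A1 (ENSG00000140379, chromosome 15 from 79960892 to 79971196, - strand), an NF-kB target in blood cells, had the lowest counts and the widest spread. It had 80.2, 144 and 98.5 normalized counts in DMSO and 86.0, 90.6 and 173 in Tan I. Only Tan I replicate 3 lay above the DMSO range, and the log2 fold change was 0.08 with an interval from -0.71 to 0.87. Without Tan I replicate 3 it was -0.24, and without DMSO replicate 1 it was -0.11.

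Both pore formers had higher means in Tan I, and neither passed the test. BAX (ENSG00000087088, chromosome 19 from 48954815 to 48961798, + strand) moves from the cytosol to mitochondria when activated. It had 987, 1428 and 1052 normalized counts in DMSO and 1009, 1445 and 1628 in Tan I. Tan I replicate 1 lay between DMSO replicates 1 and 3, while replicates 2 and 3 lay above all DMSO libraries, replicate 2 only just above DMSO replicate 2. The means were 1156 ± 239 and 1361 ± 318 (SD, n = 3 each), which gave a log2 fold change of 0.23 with an interval from -0.28 to 0.74. BAK1 (ENSG00000030110, chromosome 6 from 33572547 to 33580293, - strand) is anchored in the mitochondrial membrane at rest. It had 1497, 1677 and 1606 normalized counts in DMSO and 1473, 1834 and 2349.8 in Tan I. The DMSO libraries were close together and Tan I replicate 3 stood far above them, while Tan I replicate 1 was the lowest of all. The means were 1593 ± 90.9 and 1886 ± 441 (SD, n = 3 each), which gave a log2 fold change of 0.22 with an interval from -0.19 to 0.63. The pseudogene GGNBP1 overlaps BAK1 on the opposite strand.

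Of the 4 BH3-only members, 3 had a higher mean in Tan I and 1 a lower mean, and none passed the test. BBC3 (ENSG00000105327, chromosome 19 from 47220822 to 47232766, - strand) encodes PUMA, which binds every survival protein of the family. It had 1213, 1383 and 1243 normalized counts in DMSO and 1187, 1595 and 1812 in Tan I. The libraries stood in the same order as for BAK1, with Tan I replicate 1 lowest and Tan I replicate 3 highest. The log2 fold change was 0.24 ± 0.17 (standard error), with an interval from -0.16 to 0.64. PMAIP1 (ENSG00000141682, chromosome 18 from 59899996 to 59904305, + strand) encodes NOXA, which binds MCL1 and promotes its breakdown. It had 168, 186 and 196 normalized counts in DMSO and 183, 219 and 248 in Tan I, so that only Tan I replicate 1 lay within the DMSO range. The log2 fold change was 0.23 with an interval from -0.17 to 0.63.

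BID (ENSG00000015475, chromosome 22 from 17734138 to 17774770, - strand), which caspase-8 cleaves to link death receptors with mitochondria, had 1067, 1649 and 1133 normalized counts in DMSO and 1032, 1427 and 1868 in Tan I. High and low libraries occurred in both groups, and the log2 fold change of 0.16 (95% interval -0.43 to 0.74) was -0.052 without Tan I replicate 3. BCL2L11 (ENSG00000153094, chromosome 2 from 111119378 to 111168444, + strand) encodes BIM, a BH3-only protein held in check by growth factor signalling. It was the killer member with the lower mean in Tan I, with 532, 629 and 474 normalized counts in DMSO and 418, 483 and 453 in Tan I. Tan I replicates 1 and 3 lay below all DMSO libraries, and replicate 2 lay just above DMSO replicate 3. The means were 545 ± 78.1 and 451 ± 32.2 (SD, n = 3 each), which gave a log2 fold change of -0.26 ± 0.15 (standard error), with an interval from -0.61 to 0.08. The noncoding gene MIR4435-2HG overlaps BCL2L11 on the opposite strand.

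**Figure D1:**
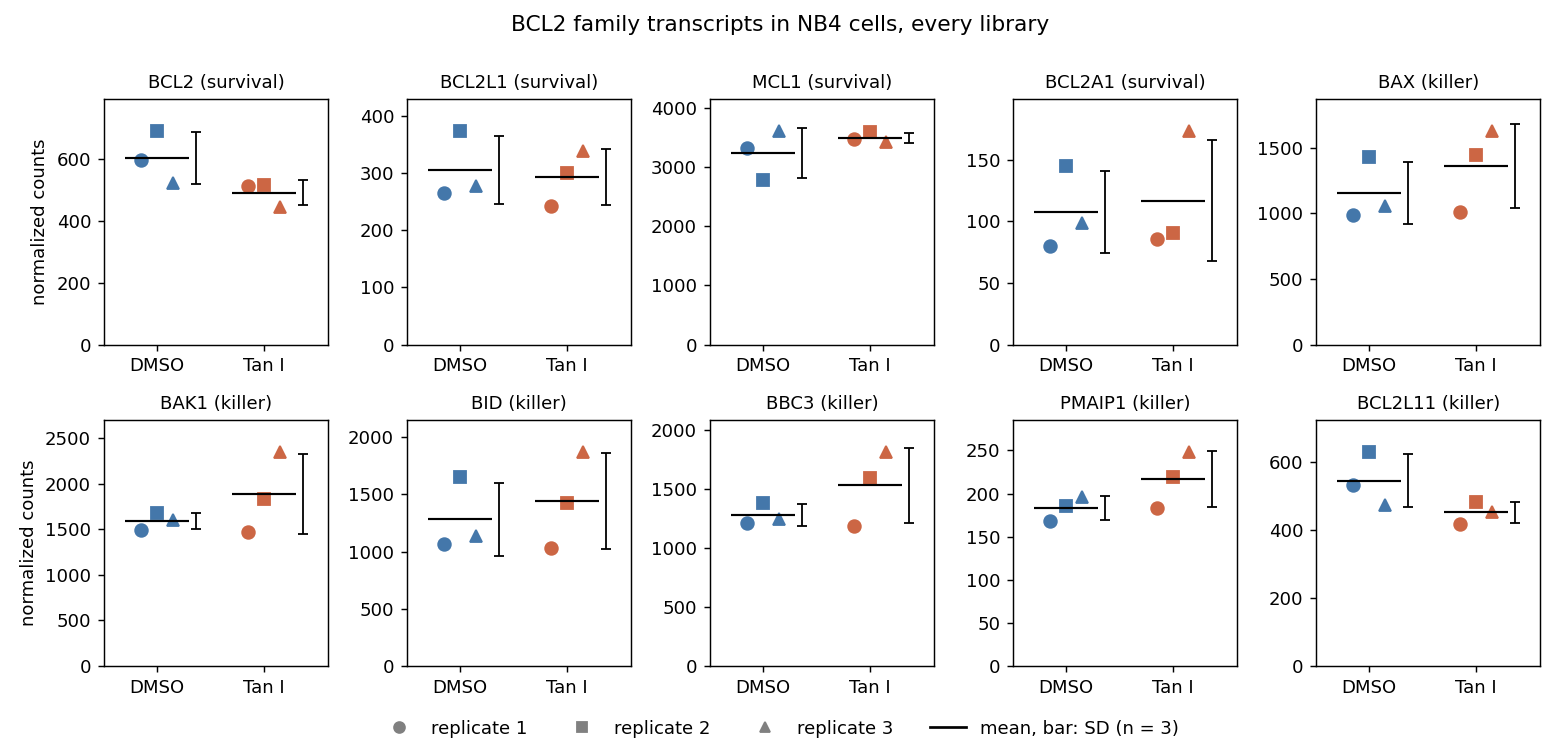
Normalized counts of the 10 BCL2 family genes in each DMSO (blue) and Tan I (red) library, 1 panel per gene with its own axis from 0; symbols give the replicate number, lines the mean and bars the SD (n = 3). The Tan I libraries of BCL2, from 445 to 519, lie below the lowest DMSO library at 522, and for BAX, BAK1, BBC3 and PMAIP1 replicates 2 and 3 of Tan I lie above all DMSO libraries while replicate 1 does not.

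**Figure D2:**
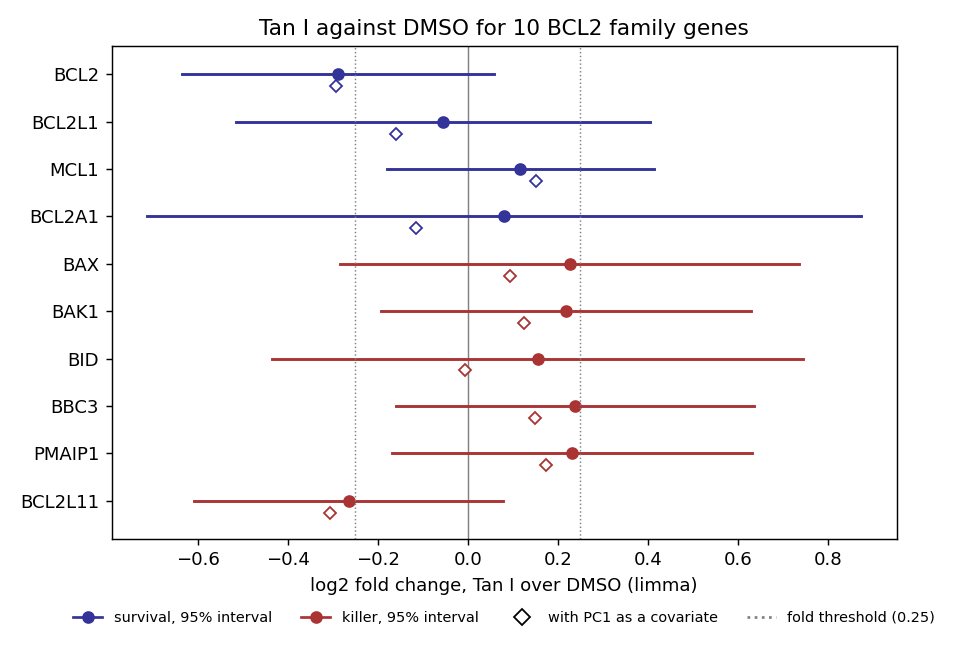
Fold change (log2, Tan I relative to DMSO) for each member from limma, with 95% intervals (survival members blue, killer members red) and, as open diamonds, the estimate with PC1 as a covariate. All 10 intervals include 0, and the dotted lines mark the fold threshold of 0.25.

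Of the 10 members, 7 had a log2 fold change above 0, as had 49.7% of all genes tested. The survival members had a median log2 fold change of 0.01 and the killer members of 0.22, against -0.00 over all genes tested. As a description, the mean log2(normalized count + 1) of the 4 survival members was set against that of the 6 killer members within each library, a difference that does not depend on the size factors beyond the pseudocount. It was -0.71, -0.71 and -0.70 in DMSO replicates 1, 2 and 3. In Tan I it was -0.71 in replicate 1 and -0.96 in both replicate 2 and replicate 3. Thus 2 of 3 Tan I libraries stood further towards the killer side than any DMSO library, and Tan I replicate 1 could not be told from DMSO by this measure. Taken alone, both levels overlapped between the groups. The survival level was 8.83, 9.15 and 8.90 in DMSO and 8.78, 8.90 and 9.10 in Tan I. The killer level was 9.54, 9.86 and 9.61 in DMSO and 9.49, 9.86 and 10.06 in Tan I. In DMSO each level had an SD of 0.17, while their difference had an SD of 0.0038. How often other sets of genes differ in this way was not tested. The group means of the difference were apart by -0.17, with an SD within groups of 0.10. They were apart by -0.25 without Tan I replicate 1 and by -0.13 without either of the other Tan I libraries.

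The ratio of BAX to BCL2, often read as the balance between death and survival, showed the same libraries apart. The ratio of their normalized counts was 1.65, 2.06 and 2.01 in DMSO and 1.97, 2.79 and 3.66 in Tan I. Tan I replicate 1 lay within the DMSO range and the other Tan I libraries lay above it. The log2 ratio was higher by 0.52 in Tan I, with an SD within groups of 0.34, and by 0.30 without Tan I replicate 3. The log2 ratio of PMAIP1 to MCL1, a BH3-only protein and its main partner, differed by 0.12 with the groups overlapping, by -0.00 without Tan I replicate 3, by 0.03 without DMSO replicate 1 and by 0.23 without DMSO replicate 2 or Tan I replicate 1. That of BCL2L11 to BCL2L1 went the other way, by -0.21, from ratios of 2.0, 1.68 and 1.71 in DMSO to 1.73, 1.61 and 1.34 in Tan I. This difference was -0.10 without Tan I replicate 3 and -0.13 without DMSO replicate 1.

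**Figure D3:**
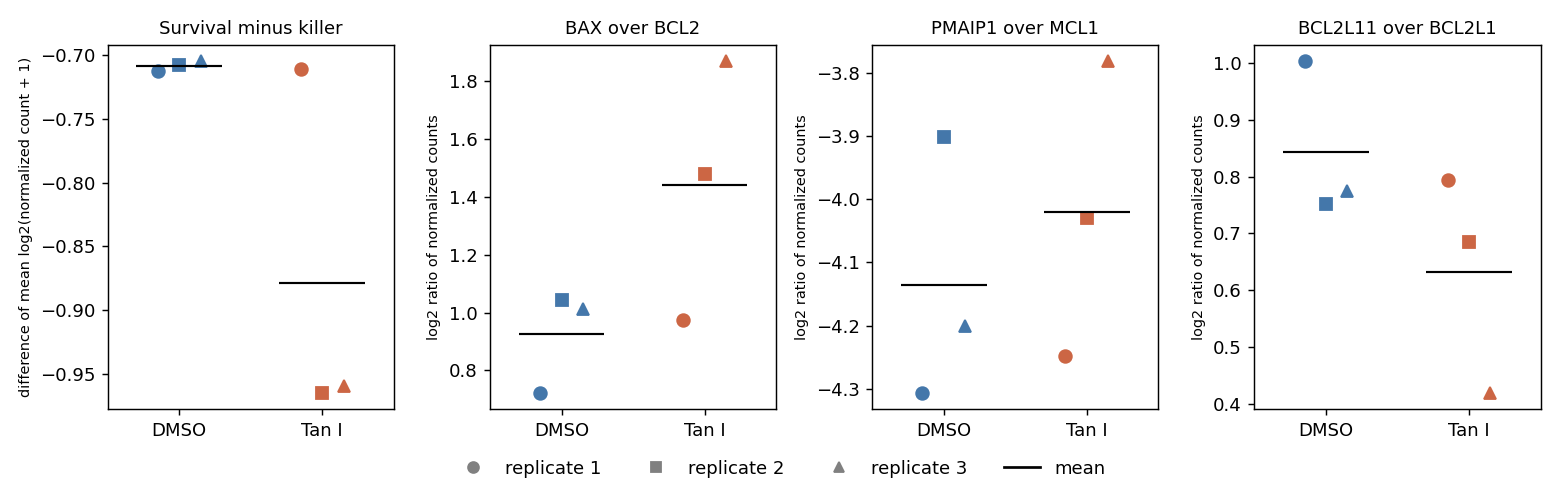
Survival minus killer level (difference of mean log2(normalized count + 1)) and log2 ratios of normalized counts for 3 pairs of a killer and a survival gene, for each DMSO (blue) and Tan I (red) library; symbols give the replicate number and lines the mean, and the axes do not start at 0. In the first panel Tan I replicate 1, at -0.71, sits with the 3 DMSO libraries, at -0.71 to -0.70, and Tan I replicates 2 and 3 both sit at -0.96.

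Much of the spread of the members followed the gradient between libraries that PC1 describes. From the lowest to the highest PC1 score, the fitted log2 level differed by 1.01 for BCL2A1, 0.86 for BID, 0.74 for BAX, 0.54 for BAK1, 0.53 for BBC3 and 0.51 for BCL2L1. It differed by 0.37 for PMAIP1, 0.13 for BCL2L11, -0.08 for BCL2 and -0.13 for MCL1. These last 3 genes varied least along it. The span for BCL2A1 was above that of 96.9% of all genes tested and the span for BID above 93.3%. With the PC1 score as a covariate in limma, BCL2 (log2 fold change -0.29, unadjusted p = 0.0175, adjusted p = 0.218) and BCL2L11 (-0.31, unadjusted p = 0.00756, adjusted p = 0.16) were called without adjustment, in a fit that called 8.86% of all genes. In the same fit the survival members had a median of -0.14 and the killer members of 0.11. BAX was at 0.09, BAK1 at 0.13, BBC3 at 0.15, PMAIP1 at 0.17 and BID at -0.0065. PC1 was computed from these same libraries, the treated ones included.

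Leaving out Tan I replicate 1, which on PC1 and in the chi-square stood next to DMSO replicate 1, BAK1 (log2 fold change 0.38, unadjusted p = 0.0360) and BBC3 (0.41, unadjusted p = 0.0164) were called by limma, again in a fit that called 8.86% of all genes, and their adjusted p was 0.532. Leaving out Tan I replicate 3, the library highest on PC1, went the other way, with BAK1 at 0.05, BBC3 at 0.11, BAX at 0.08 and PMAIP1 at 0.13, none of them called. Without DMSO replicate 2, BCL2 was at -0.19 and BCL2L11 at -0.16, not called either. Without both DMSO replicate 2 and Tan I replicate 3, the libraries with the highest PC1 scores, no member was called. Leaving out this pair was chosen after seeing the data.

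**Figure D4:**
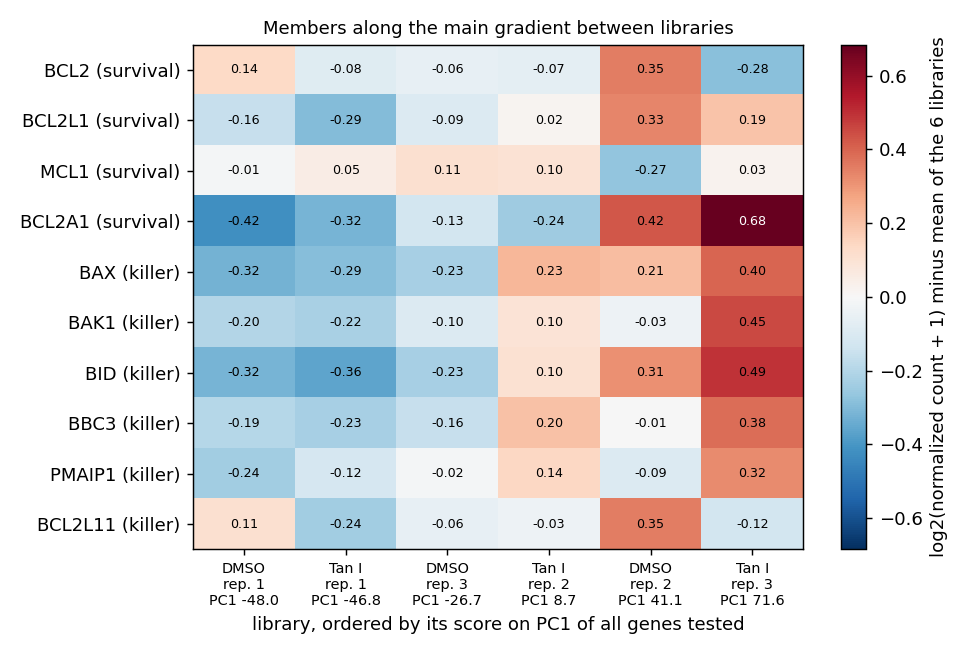
Deviation of each member from its mean over the 6 libraries, in log2(normalized count + 1), with the libraries ordered by PC1 score from left to right. BCL2A1, BAX, BAK1, BID and BBC3 pass from negative values in the 3 libraries on the left to their highest value in Tan I replicate 3, whereas BCL2 and BCL2L11 are highest in DMSO replicate 2.

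Levels of different genes were compared per kilobase of merged exons, in DMSO. BAK1 was highest at 720 ± 41.1 normalized counts per kilobase, above MCL1 at 519.9 ± 67.8, BAX at 447 ± 92.2 and BBC3 at 402 ± 28.5 (SD, n = 3 each). The ranges of MCL1 and BAX overlapped, as did those of BAX and BBC3. BID followed at 290.2 ± 72.1. A lower tier held BCL2A1 at 108 ± 33.3, PMAIP1 at 83.8 ± 6.55, BCL2L11 at 80.9 ± 11.6 and BCL2L1 at 72.8 ± 14.1, each overlapping its neighbour, and BCL2 was lowest at 47.9 ± 6.78. Per kilobase of the canonical transcript BAX came first and BCL2 stayed last, while PMAIP1 and BCL2L1 changed places. The order among the upper genes and within the lower tier thus depends on the length used.

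Of the other genes in the lists below, BIRC3 and MYC were called, where 2.42% of all genes tested were called. Among 13 further BCL2 family genes, 10 were listed and tested, 6 were higher and 4 lower, 0 were called, and the median log2 fold change was 0.02. They ran from -0.28 for BCL2L15 to 0.38 for BCL2L10, a survival-type member with 56.9, 57.8 and 38.3 normalized counts in DMSO and 45.0, 90.6 and 69.3 in Tan I. BAD and BIK, both BH3-only, were at 0.21 each, and BMF, another BH3-only gene, was at -0.01, none of them called.

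Downstream of the pores, 20 genes were tested, from cytochrome c to the caspases and their inhibitors, with 14 higher, 6 lower and a median of 0.04. BIRC3 alone was called. BIRC3, a ubiquitin ligase of the IAP family and an NF-kB target, had 45.7, 79.9 and 64.9 normalized counts in DMSO and 94.8, 93.8 and 108 in Tan I. The lowest Tan I library exceeded the highest DMSO library, as for 3.92% of all genes tested. Its log2 fold change was 0.66 ± 0.25 (standard error), the adjusted p 0.999 (limma, unadjusted p = 0.0310), and the call was lost without DMSO replicate 1 or 3 or Tan I replicate 2 or 3. The lowest value of the list was -0.19, for DFFA, an inhibitor of the apoptotic nuclease. CYCS, cytochrome c itself, was at 0.21, CASP9 at 0.03 and APAF1 at -0.09, none of them called.

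Among 10 transcription factors known to act on members, 5 were higher and 5 lower, with a median of 0.03. MYC, which sensitises cells to apoptosis, was called lower, from 4064, 5259 and 4870.3 normalized counts in DMSO to 2989.9, 3385 and 3958 in Tan I. Its groups lay apart with Tan I below DMSO, as for 3.97% of all genes tested. In 1 other factor of the list Tan I lay wholly above DMSO, as for 3.92% of all genes tested, and that factor was not called. The log2 fold change of MYC was -0.46 ± 0.15 (standard error), the adjusted p 0.999 (limma, unadjusted p = 0.0186). With PC1 as a covariate in limma the adjusted p was 0.000631, in a fit that called 194 genes after adjustment. PC1 was computed from these same libraries. Without the covariate, the unadjusted call of MYC was lost without DMSO replicate 2 or 3 or Tan I replicate 1 or 2. DDIT3, the highest of the list and the gene for the stress factor CHOP, was at 0.30 with overlapping groups. Of 7 genes for turnover or tethering of the members, 0 were called, and they ran from -0.22 for HUWE1, a ligase for MCL1, to 0.11 for DYNLL1, a dynein light chain that tethers BIM.

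**Figure D5:**
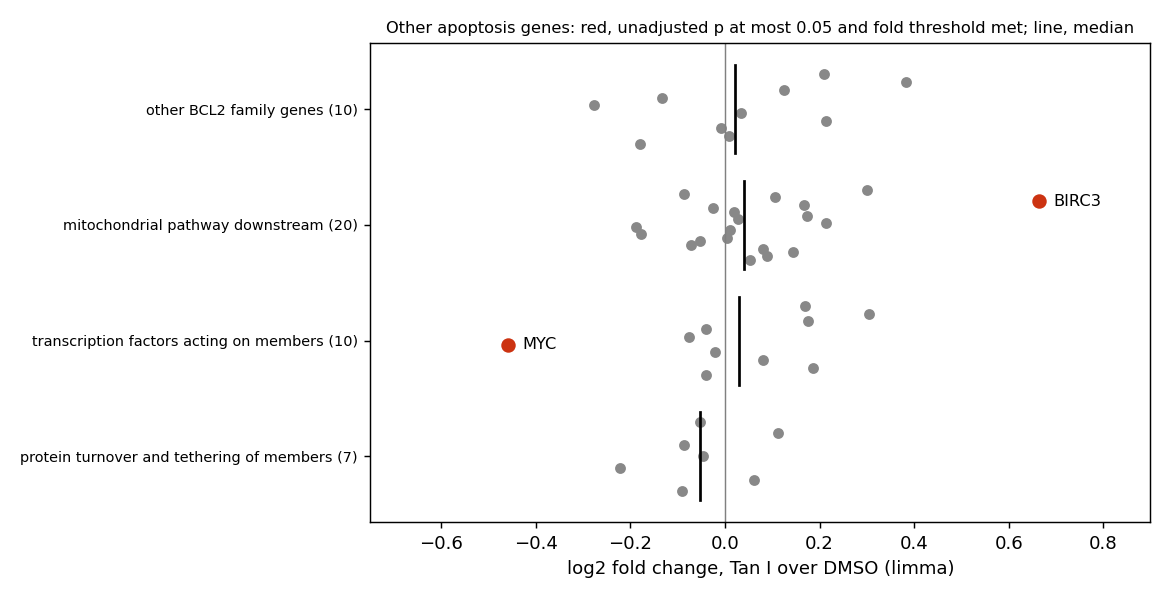
Fold change (log2, Tan I relative to DMSO, limma) for the other apoptosis genes tested, by list, with the number tested in brackets; black lines are medians and red points are genes called without adjustment. BIRC3 at 0.66 and MYC at -0.46 are the 2 genes called, and the list medians lie between -0.05 and 0.04.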

How the data were processed

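According to the methods and the processing notes of the submitters, reads were aligned to GRCh38 with STAR, multi-mapping reads were removed, genes were counted with featureCounts and DESeq2 was run; versions and the strand setting are not given in the sources used here. The authors deposited 1 table whose signal values are normalized counts, that is, counts divided by 1 size factor per library. The deposited table also holds the authors' mean, log2 fold change, its error, a Wald score and p-values, which were not used. Dividing each library by its smallest value above 0 gave whole reads for 100% of values (tolerance 0.001 reads).

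Tan I and DMSO were compared with limma 3.58.1 in R 4.3.3 (trended eBayes) on log2(normalized count + 1) for 16887 genes, after 1738 with a mean under 10 were left out. Fold changes of low genes are understated on this scale. Alternatives used edgeR 4.0.16 and DESeq2 1.42.0 on the recovered reads, other pseudocounts (0.1 and 10), filters and scalings, PC1 as a covariate, the replicate number as a block, and libraries left out. On simulated reads of these 16887 genes, 200 genes with a mean of 50 or more were changed. There limma called 92% of log2 changes of 1 without adjustment and 50% with it. Each gene was drawn on its own, so the simulation lacked the gradient of PC1, and these shares may not carry over to the real libraries. The members differed by less, with log2 fold changes from -0.29 to 0.24, and how often differences of that size are called was not tested.

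Members, lists and alternatives were chosen with earlier results of these data known. Named genes were the members, every called gene of the other lists and the highest and lowest of each; further genes of those lists, the named markers, the motifs and the 3 promoters were picked after values were seen. MARCHF5 was matched by its Ensembl identifier, the others by symbol. Positions and lengths are from GENCODE release 44, and promoters from RefSeq on GRCh38.p14. One further gene list and some single genes are not reported here.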

Additional observations from a re-analysis of the deposited data

How the results depend on the processing

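Over 18 alternatives and 1 larger fold threshold, the direction of BCL2, MCL1, BAX, BAK1, BBC3, PMAIP1 and BCL2L11 was kept. The log2 fold change of BCL2A1 was -0.12 with PC1 as a covariate and -0.0091 without both DMSO replicate 2 and Tan I replicate 3, and that of BID was -0.0065 with PC1 as a covariate. With 1 library left out, the log2 fold change ran from -0.39 to -0.19 for BCL2, -0.16 to 0.10 for BCL2L1, -0.24 to 0.31 for BCL2A1, -0.052 to 0.38 for BID, 0.01 to 0.20 for MCL1, 0.08 to 0.43 for BAX, 0.05 to 0.38 for BAK1, 0.11 to 0.41 for BBC3, 0.13 to 0.35 for PMAIP1 and -0.36 to -0.16 for BCL2L11. The members called ranged from 0 to 2 with 1 library left out, the downstream genes from 0 to 2 and the transcription factors from 0 to 1. With PC1 as a covariate, 2 members were called. Over all genes, the unadjusted count of 408 became 1496 with PC1 as a covariate, 49 with a log2 fold threshold of 1, and 160 to 1496 with 1 library left out. After rescaling all libraries to an equal total, 188 of 438 calls were higher in Tan I, against 223 of 408, and the median of all genes was -0.06. With this scaling BID was at 0.10, BAX at 0.17, BAK1 at 0.16, BBC3 at 0.18, PMAIP1 at 0.17 and BCL2L11 at -0.32. Of the survival members, BCL2 was at -0.35, BCL2L1 at -0.11, MCL1 at 0.06 and BCL2A1 at 0.02. The percent differences given for the members thus depend on the scaling. The adjusted count of 0 became 16 with DESeq2, 194 with PC1 as a covariate and 2 without DMSO replicate 2 and Tan I replicate 3. The cause of these changes was not tested.

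The deviations of same-numbered libraries correlated at 0.75 for replicate 1, but at -0.09 for replicate 2 and -0.45 for replicate 3, so the numbers were not taken to pair the samples. The replicate number as a block gave 348 genes called without adjustment and 0 members. With 3 libraries a group, differences of the size seen in the members are within the intervals given, and their absence is not shown.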
